A study of Mus musculus with 2 samples.

Results

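The genes described here are the nuclear genes of oxidative phosphorylation, followed through the stages of sperm formation in mouse testis. They were chosen by symbol: genes whose names start with Ndufa, Ndufb, Ndufc, Ndufs, Ndufv, Uqcr, Cox4 to Cox8 or Atp5, the 4 succinate dehydrogenase genes, Cycs, Cyct and Cyc1. This gave 99 genes of the 33842 present in the count matrices of both libraries. They fall into 39 genes of complex I, 8 complex I assembly factors, 4 genes of complex II, 9 of complex III, 2 cytochromes c, 20 of complex IV and 17 of complex V. Ndufa4 and Ndufa4l2 were counted with complex IV, and Cyc1, which encodes cytochrome c1, with complex III.

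Oxidative phosphorylation passes electrons from NADH and succinate through complexes I to IV in the inner mitochondrial membrane, with cytochrome c as the mobile carrier between complexes III and IV. The proton gradient built on the way drives ATP synthase, also called complex V. Male germ cells are known for isoforms of their own: Cyct encodes testis cytochrome c, and Cox6b2, Cox7b2 and Cox8c encode isoforms of complex IV subunits found in testis. Their general partners are Cycs, Cox6b1, Cox7b and Cox8a. Genes on the X chromosome are silenced during pachytene of male meiosis.

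The data are single-cell RNA sequencing of testes from C57 BL/6 males. Per the series' design text, 20 mice aged 5 weeks were adapted for 1 week and fed for 12 weeks, 10 of them normal chow and the other 10 a feed drawing 60% of its calories from fat. Each group has 1 library. One library is labelled with the high-fat diet (the high-fat library). The other carries no diet in its label, only the tissue (the tissue-labelled library). How many mice went into a library, and whether the tissue-labelled library stands for the normal diet, is unknown from the labels.

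The tissue-labelled library had 13805 cell barcodes with a median of 13024 unique molecular identifiers (UMIs, 1 per captured transcript molecule), and the high-fat library 12661 with a median of 9772. Filters and doublet calls left 13286 and 12196 cells, and 10865 and 8790 of them lay in clusters named as 1 of 8 germ cell stages from marker genes. The 99 genes were left out of the clustering, so their levels did not set the stages. The labelled cell type is germ cells, yet Sertoli-like cells numbered 761 and 1236. Levels below are CPM, the UMIs of a gene per 1000000 UMIs, summed over the cells of a stage and library. Values come in pairs, with the tissue-labelled library first and the high-fat library second, and 95% intervals cover counting error only. A group of 1 library has no replicates, so nothing was tested. The second library shows how far a stage pattern repeats.

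Stages differed in depth and in purity. Spermatogonia-like cells (700 and 841) had medians of 2354 and 2381 UMIs, and elongating spermatid-like cells (150 and 235) 3251 and 4298, against 13892 to 21848 in pachytene spermatocytes to late round spermatids. Pachytene to late round stages were mostly made of different clusters in the 2 libraries (in the order given below, clusters 2 and 15 and then 9 for pachytene, 1 and 18 for late spermatocytes, 3 and 13 and then 19 for early round, 4 and 24 for middle round and 12 and 23 for late round spermatids), while spermatogonia, early spermatocytes and elongating spermatids were 1 shared cluster each. Cluster 15 held 642 of the 1560 pachytene cells of the tissue-labelled library and 83 of the 898 of the high-fat library. Clusters 15, 4 and 24 had no marker of their class among their top 10 genes and were named by mean marker fold. In spermatogonia the markers of elongating spermatids stood at a median of 32.7% and 48.7% of their whole-library level, a measure of free RNA in droplets. Sertoli cell markers reached 26.6% and 15.6% of their Sertoli level in elongating spermatids, and at most 5.52% in any other germ cell stage.

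Upstream sequences of the cytochrome c pair and of 2 testis isoforms of complex IV are shown. Between spermatogonia and pachytene Cycs fell, while Cyct, Cox6b2 and Cox7b2 rose. Each run is the 250 bases before the RefSeq transcription start on GRCm38.p6, read 5′ to 3′ on the gene's own strand, which is the minus strand for all 4. Cyct lies upstream at chr2:76360454-76360703, Cycs at chr6:50566570-50566819, Cox6b2 at chr7:4753095-4753344 and Cox7b2 at chr5:71548206-71548455. Capitals mark matches on either strand to the core of the nuclear respiratory factor 1 motif (GCATGCGC), to the cyclic AMP response element (TGACGTCA) or to its shorter form (TGACGT, which also lies within the full element).
Cyct: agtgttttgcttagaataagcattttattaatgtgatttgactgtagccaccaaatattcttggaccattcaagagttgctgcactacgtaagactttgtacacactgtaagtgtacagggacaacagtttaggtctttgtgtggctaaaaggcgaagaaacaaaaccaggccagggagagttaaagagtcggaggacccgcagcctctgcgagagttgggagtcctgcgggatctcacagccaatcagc
Cycs: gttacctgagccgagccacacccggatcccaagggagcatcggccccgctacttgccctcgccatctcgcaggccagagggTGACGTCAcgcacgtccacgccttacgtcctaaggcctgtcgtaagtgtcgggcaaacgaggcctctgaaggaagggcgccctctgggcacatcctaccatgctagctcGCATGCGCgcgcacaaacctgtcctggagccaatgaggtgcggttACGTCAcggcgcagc
Cox6b2: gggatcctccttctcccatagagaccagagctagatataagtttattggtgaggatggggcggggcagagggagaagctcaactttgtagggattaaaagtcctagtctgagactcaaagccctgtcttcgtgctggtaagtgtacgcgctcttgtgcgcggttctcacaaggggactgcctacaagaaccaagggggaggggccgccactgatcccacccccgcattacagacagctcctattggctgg
Cox7b2: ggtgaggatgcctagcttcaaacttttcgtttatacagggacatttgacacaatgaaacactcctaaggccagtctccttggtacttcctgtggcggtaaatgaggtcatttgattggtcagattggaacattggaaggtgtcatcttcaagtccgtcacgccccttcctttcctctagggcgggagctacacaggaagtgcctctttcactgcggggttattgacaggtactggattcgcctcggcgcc

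The Cycs window held 1 full cyclic AMP response element, starting at position -169 from the start site, 1 short form outside it at -15 and 1 nuclear respiratory factor 1 core at -60. None of these letters were found in the windows of Cyct, Cox6b2 or Cox7b2. Of the other general partners, Cox7b held none of them either, and Cox6b1 and Cox8a held only the short form. The motifs thus did not separate testis from general isoforms. Of the 76 members with an entry in the RefSeq promoter table, 10 held the nuclear respiratory factor 1 core (13.2%), against 2.56% of all 27025 genes with one. The full cyclic AMP response element was in 5 of the 76 (6.58%), against 1.77% of all genes. The short form was in 10 of the 76 (13.2%), against 7.29%. The Cycs window was richer in G and C (64.0%) than those of Cyct (45.6%), Cox7b2 (50.4%) and Cox6b2 (54.8%). The median was 57.4% over members and 52.4% over all promoters. What part this difference has in the motif shares was not tested.

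Summed over all 99 genes, the level was highest in pachytene spermatocytes and fell stage by stage to elongating spermatids. It was 30653 and 28271 CPM in spermatogonia, 27806 and 24932 in early spermatocytes, and 37564 and 38989 in pachytene spermatocytes. It then went to 35811 and 33429 in late spermatocytes, 31270 and 30193 in early round, 24989 and 23333 in middle round and 19279 and 17725 in late round spermatids. Elongating spermatids had 15287 and 13620. Both libraries gave the same order from pachytene on. Without Cyct, Cox6b2, Cox7b2 and Cox8c, the other 95 genes summed to 28325 and 26131 CPM in spermatogonia. They had 29739 and 30701 in pachytene and 13267 and 12096 in elongating spermatids. The rise into pachytene was thus much smaller without the testis isoforms, while the fall after it remained. Because CPM is a share of the UMIs of a stage, fewer transcripts of these genes and more of others cannot be told apart.

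**Figure D1:**
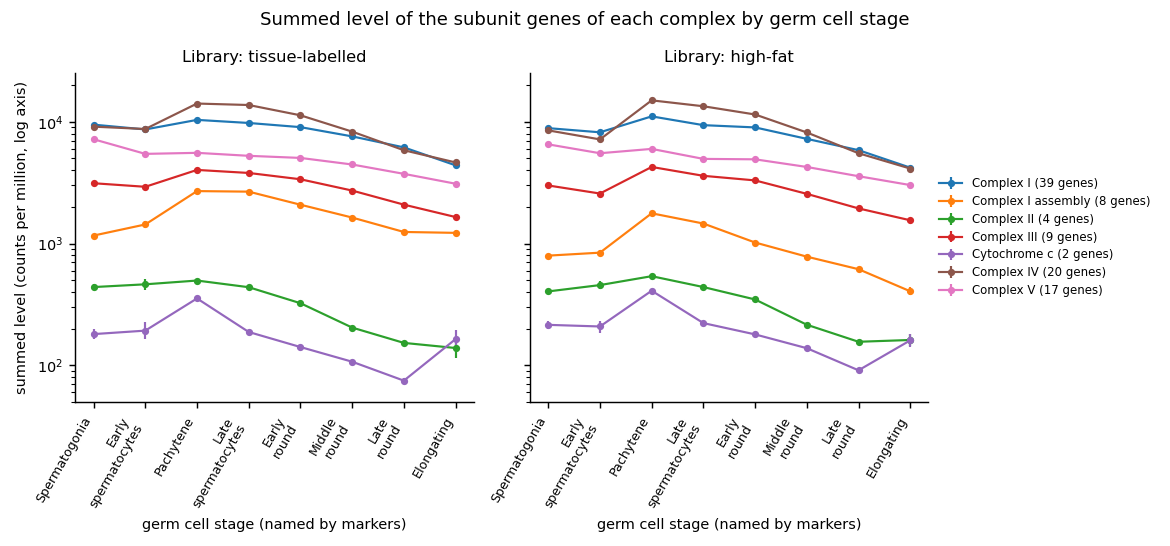
Summed level of the genes of each complex (CPM, log axis) by germ cell stage, 1 panel per library; bars are 95% Poisson intervals for counting error. Complex IV and complex III peak in pachytene spermatocytes in both libraries, while complex V is highest in spermatogonia.

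Complex IV, cytochrome c oxidase, had the largest sum in pachytene. It went from 9107 and 8488 CPM in spermatogonia to 14096 and 14974 in pachytene and down to 5832 and 5510 in late round spermatids. The testis isoforms Cox8c, Cox6b2 and Cox7b2 are part of this sum. Complex I, the NADH dehydrogenase, moved less, from 9460 and 8855 CPM to 10351 and 11062 and then to 6156 and 5841. Complex III went from 3126 and 2996 CPM in spermatogonia to 4020 and 4252 in pachytene and 2086 and 1942 in late round spermatids. Complex V was the exception: it was highest in spermatogonia at 7178 and 6517 CPM, and stood at 5552 and 5981 in pachytene. Complex II, succinate dehydrogenase, was the smallest of the complexes, at 497 and 539 CPM in pachytene and 153 and 156 in late round spermatids.

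Single genes split over the early stages. Of 89 members with a mean of at least 10 CPM in both libraries, 68 had the same highest stage in both. That stage was spermatogonia for 23, early spermatocytes for 8, pachytene for 25, late spermatocytes for 8, early round spermatids for 3 and middle round spermatids for 1. None of the 89 had its highest level in late round or elongating spermatids in both libraries. Highest stages were not counted over all genes, so these counts are not read as particular to the members. Below that mean, Ndufa11b and Cox4i2 were highest in late round spermatids in both.

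By their mean over the 8 stages and both libraries, Cox8c was the highest member of complex IV and of the whole list (2400 and 2533 CPM), and Cox6a2, known from heart and muscle, the lowest of complex IV (0.0146 and 0.117). In complex I, Ndufc1 had the highest mean (833 and 757 CPM) and Ndufs6b the lowest (0.521 and 0.396), although Ndufb4c was lower in the high-fat library (0.671 and 0.331). Among assembly factors, Ndufaf3 was highest (1366 and 530 CPM) and Ndufaf6 lowest (2.23 and 2.93). In complex III, Uqcrq, a small subunit, was highest (1221 and 1151 CPM) and Cyc1 lowest (52.0 and 54.5). In complex II, the iron-sulfur subunit gene Sdhb was highest (167 and 166 CPM) and Sdhd, for a membrane anchor, lowest (38.2 and 39.2). In complex V, Atp5e was highest (862 and 765 CPM), and Atp5g2, 1 of 3 genes for subunit c, lowest (2.20 and 1.85). UMIs count molecules and were not divided by transcript length, and how well each gene's transcripts are captured was not measured.

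The testis isoforms of cytochrome c and complex IV rose, and their general partners fell, between spermatogonia and pachytene spermatocytes in both libraries. Cyct was at 89.9 and 119 CPM in spermatogonia, 90.8 and 115 in early spermatocytes, 351 and 406 in pachytene and 185 and 219 in late spermatocytes. It then went to 130 and 170 CPM in early round, 94.4 and 130 in middle round and 65.9 and 85.7 in late round spermatids. Cycs stood at 90.6 and 96.3 CPM in spermatogonia and 102 and 93.6 in early spermatocytes, then at 3.34 and 3.87 in pachytene and 2.55 and 3.28 in late spermatocytes. Without correction for free RNA, Cycs and Cyct were thus near each other up to early spermatocytes, and far apart from pachytene on. With free RNA subtracted, Cyct made up only 28.6% and 20.8% of the UMIs of the pair in spermatogonia, so the nearness there is not read as equal expression. In round spermatids Cycs came back in part, to 11.3 and 9.09 CPM in early round, 12.7 and 8.61 in middle round and 8.94 and 5.32 in late round cells.

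As a share of the UMIs of the pair, Cyct made up 49.8% (95% Clopper-Pearson interval 45.2 to 54.4, 478 UMIs) and 55.2% (51.4 to 58.9, 701 UMIs) in spermatogonia. In pachytene it was 99.06% (98.9 to 99.2) and 99.06% (98.9 to 99.2). It then declined to 92.0% and 94.9% in early round and 88.1% and 93.8% in middle round spermatids. There the intervals of the 2 libraries (87.0 to 89.2 and 93.1 to 94.4) did not overlap. These intervals cover counting error only, and middle round cells were mostly different clusters in the 2 libraries. In elongating spermatids the share was 43.4% and 36.9%, with Cycs at 92.9 and 101 CPM. The Sertoli-like cells, whose markers are also found in that class, had Cycs at 329 and 472 CPM. The part of those cells in the elongating value was not tested.

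The share of cells with a UMI followed the levels. After each cell was thinned to 1000 UMIs, Cyct was seen in 8.71% and 12.8% of spermatogonia and in 30.4% and 33.1% of pachytene cells. Cycs was seen in 7.71% and 8.20% of spermatogonia and in 0.513% and 0.334% of pachytene cells. Unthinned, Cyct was in 23.7% and 28.2% of spermatogonia and 87.3% and 93.5% of pachytene cells. Sertoli-like cells, which should lack Cyct, showed it in 10.5% and 13.3% after thinning (20.2% and 21.8% unthinned, median depths 1348 and 1532 UMIs), and the shares in spermatogonia, which lie below these, are not read as expression. The spermatid markers stood at 57.7% and 105% of their whole-library level in Sertoli-like cells, above their 32.7% and 48.7% in spermatogonia.

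The 3 pairs of complex IV followed the same course at higher levels. Cox8c, the testis isoform of subunit 8, went from 1246 and 1270 CPM in spermatogonia to 4608.5 and 5277 in pachytene, the highest level of any member in any stage. Its partner Cox8a went from 429 and 415 CPM to 18.3 and 17.8. Already in early spermatocytes Cox8a was at 38.6 and 40.3 CPM. Cox8c made up 74.4% and 75.4% of the pair in spermatogonia, 97.9% and 96.8% in early spermatocytes and 99.6% and 99.7% in pachytene, and still 98.9% and 98.7% in late round spermatids. With free RNA subtracted, the early spermatocyte share was 96.5% in the tissue-labelled library. In the high-fat library the subtraction removed more than the whole Cox8c level. That level was set to 3 counts, and the share of 4.13% is this floor and not a measured value. The early spermatocyte share therefore does not place the switch before pachytene in both libraries.

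Cox6b2, a testis isoform of subunit 6B, stood at 632 and 458 CPM in spermatogonia, 1830.5 and 1604 in pachytene and 983 and 671 in late round spermatids. Its partner Cox6b1 went from 291 and 323 CPM to 20.6 and 34.2 in pachytene and 11.1 and 27.3 in late round spermatids. The share of Cox6b2 was 68.5% and 58.6% in spermatogonia and 98.9% and 97.9% in pachytene. Cox7b2 was at 360 and 293 CPM in spermatogonia and 1036 and 1000.3 in pachytene, while X-linked Cox7b went from 91.7 and 79.7 CPM to 1.40 and 1.57. The share of Cox7b2 was 79.7% and 78.6% in spermatogonia and 99.9% and 99.8% in pachytene. From pachytene to late round spermatids, each complex IV testis isoform held at least 96.1% of its pair in both libraries.

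**Figure D2:**
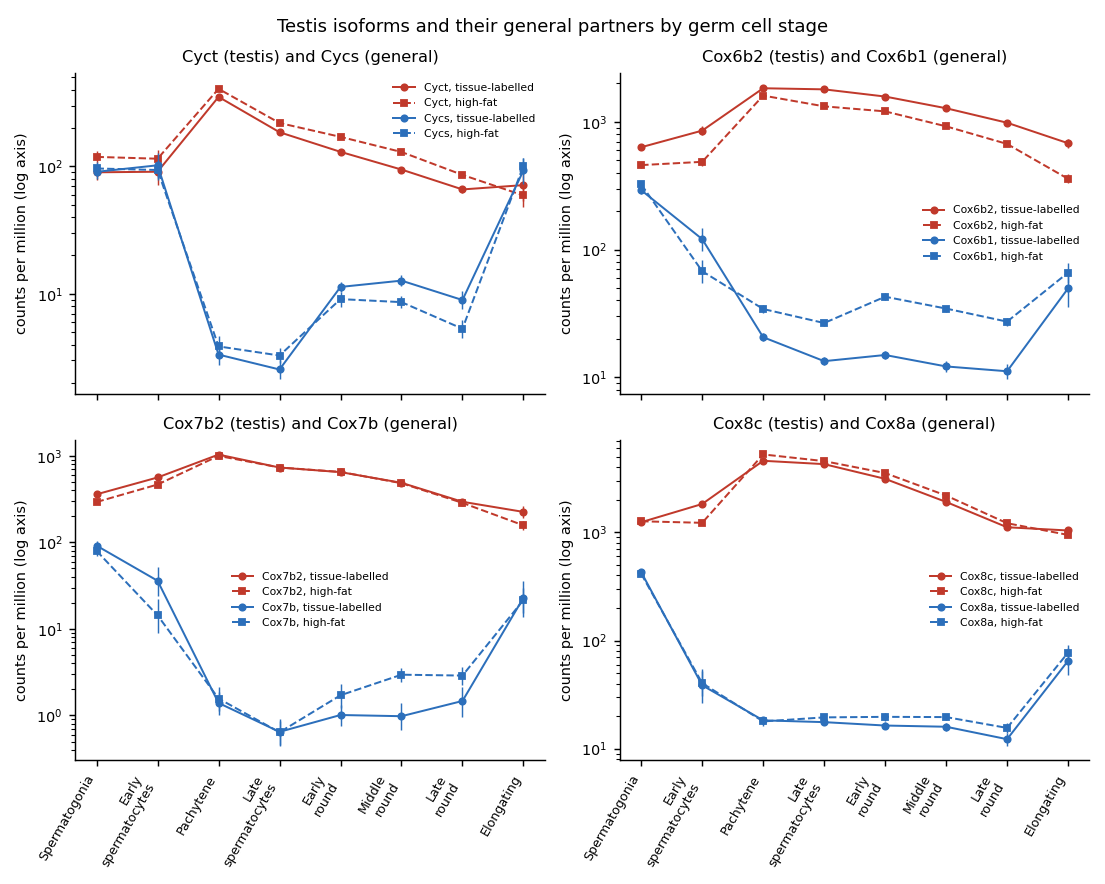
Level (CPM, log axis) of 4 testis isoforms (red) and their general partners (blue) by germ cell stage; circles and solid lines are the tissue-labelled library, squares and dashed lines the high-fat library, bars 95% Poisson intervals. In all 4 pairs the red and blue lines lie furthest apart between pachytene and late round spermatids, and the blue lines turn up in elongating spermatids.

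Free RNA bears on the testis isoforms in the shallow early stages. In spermatogonia Cyct stood at 53.1% and 60.6% of its whole-library level, Cox7b2 at 53.9% and 47.1%, Cox6b2 at 41.1% and 40.8% and Cox8c at 38.5% and 37.6%, beside 32.7% and 48.7% for the spermatid markers. With free RNA subtracted, the shares in spermatogonia came to 28.6% and 20.8% for Cyct, 31.2% and 0.118% for Cox8c, 31.4% and 0.156% for Cox6b2 and 61.2% and 0.613% for Cox7b2. In early spermatocytes they came to 28.2% and 14.1% for Cyct, 76.9% and 2.11% for Cox6b2 and 91.2% and 93.0% for Cox7b2. In the high-fat library the subtraction removed more than the whole spermatogonia level of Cox8c, Cox6b2 and Cox7b2. The values of 0.118%, 0.156% and 0.613% are the floor described above and not measured shares. The same holds for 2.11% for Cox6b2 in early spermatocytes. For Cox8c, Cox6b2 and Cox7b2 the subtracted shares therefore cannot show how near the 2 libraries are in spermatogonia. The shares in pachytene changed by less than 1 percentage point (Cyct 99.2% and 99.3%). How much of the testis isoforms in spermatogonia and early spermatocytes was made by those cells was not tested.

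Isoforms known from other tissues were near 0 in germ cells. Cox4i2, a lung isoform of subunit 4, gave at most 0.372% of the pair with Cox4i1, in late round spermatids of the high-fat library (32 UMIs), with 0.361% (27 UMIs) in the other library. Cox6a2 gave at most 0.158% of the pair with Cox6a1. Cox7a1, a heart and muscle isoform, was at 0.959% and 1.14% of the pair with Cox7a2 in spermatogonia, under 0.05% from pachytene to late round spermatids, and 2.46% and 2.27% in Sertoli-like cells. Ndufa4l2, a relative of the complex IV subunit gene Ndufa4, crossed its partner: Ndufa4 went from 233 and 248 CPM in spermatogonia to 2.25 and 3.87 in late spermatocytes, and Ndufa4l2 from 38.1 and 35.3 to 122 and 123.

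Between spermatogonia and pachytene, 91 members had at least 50 counts in the 2 stages in each library. Of these, 10 were more than 2-fold higher in both libraries, where 12.6% of all 13479 genes were, and 16 more than 2-fold lower, where 35.2% were. The median log2 fold of the members was 0.09 and 0.27, against -0.45 and -0.48 over all genes tested. Under scaling by the median of ratios between genes the member medians were -0.27 and 0.00, so their sign depends on the scaling in the tissue-labelled library. Shares of 11.0% higher and 17.6% lower are near and below those backgrounds.

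The 5 members most higher were Ndufaf3 (3.42-fold, interval 3.26 to 3.59, and 4.84-fold, 4.52 to 5.18), Cox8c, Cyct, Cox6b2 and Cox7b2. Ndufa4l2, Uqcrc2, Ndufb5, Ndufc1 and Uqcrq, all between 2.04-fold and 2.53-fold, made up the rest of the 10. Uqcrc2 encodes a core protein of complex III, and was at 145 and 110 CPM in spermatogonia and 313 and 274 in pachytene. It overlaps Pdzd9 on the opposite strand in the GENCODE M21 annotation. Pdzd9 was at 227 and 161 CPM in spermatogonia, 597 and 411 in pachytene and 321 and 242 in middle round spermatids. Both genes were lower in the high-fat library in all 8 stages. Use of strand in the counting is not given, so reads of the 2 overlapping genes cannot be told apart with certainty. What part Pdzd9 reads have in the Uqcrc2 level was not tested. The 5 most lower were Ndufb11, Cox7b, Cycs, Cox8a and Ndufa4. Ndufb11, an accessory subunit of complex I, was 74.7 and 54.6 times lower, Cox7b 65.8 and 50.8 times, Cycs 27.2 and 24.9 times, Cox8a 23.5 and 23.2 times, and Ndufa4 23.6 and 11.6 times. Next came Cox6b1 (14.2 and 9.44 times lower) and the assembly factor gene Ndufaf4 (10.7 and 9.82 times). The 2 small ATP synthase genes Atp5mpl (9.07 and 5.78 times lower) and Atp5md (6.25 and 4.75 times) were also among the 16.

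**Figure D3:**
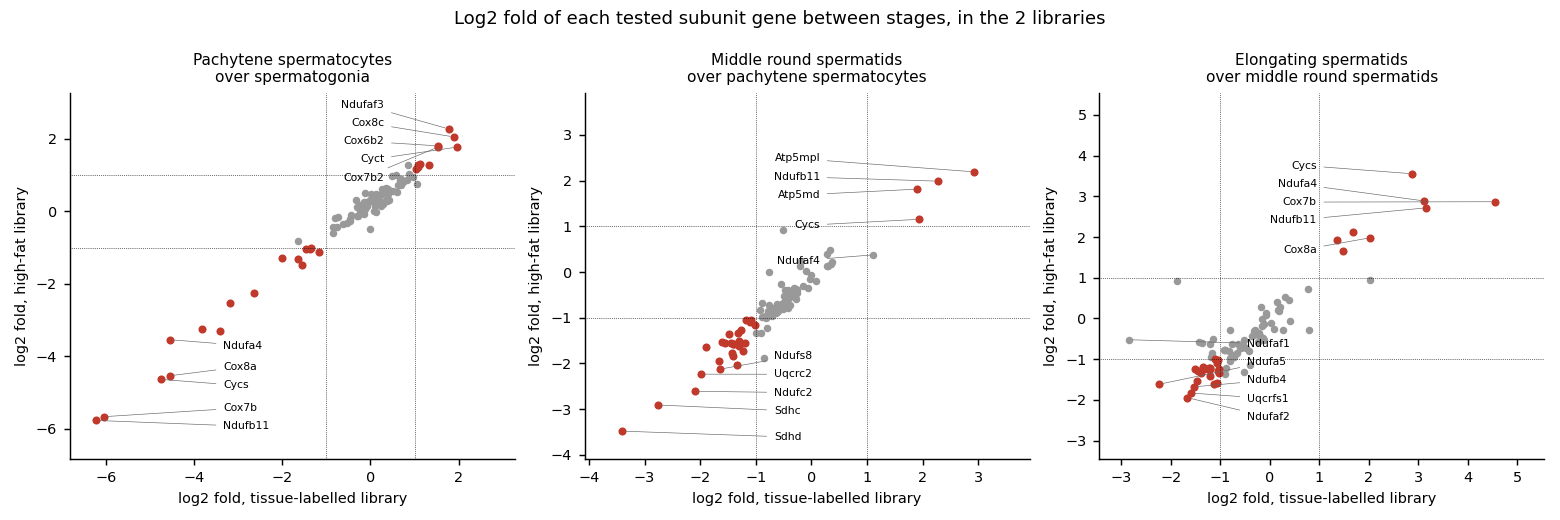
Log2 fold of each tested gene between neighbouring main stages, with the tissue-labelled library on the x axis and the high-fat library on the y axis; red points are past 2-fold in the same direction in both libraries, dotted lines mark 2-fold, and the 5 highest and 5 lowest genes are named. Ndufb11 and Cox7b lie lowest in the first panel, Sdhd and Sdhc lowest and Atp5mpl highest in the second.

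The list holds 3 X-linked genes, Ndufa1, Ndufb11 and Cox7b, and all were past 2-fold lower in pachytene in both libraries, as were 94.4% of the 250 X-chromosome genes tested and 34.0% of autosomal genes. Their courses before pachytene differed. Ndufa1, an accessory subunit of complex I, was at 109 and 91.7 CPM in spermatogonia, 741 and 816 in early spermatocytes, and 37.3 and 33.0 in pachytene. The rise into early spermatocytes was 6.82-fold (5.91 to 7.87) and 8.90-fold (7.83 to 10.1), and the fall after it 19.9-fold (18.0 to 21.9) and 24.7-fold (22.6 to 27.0). No other X-linked member did this: Ndufb11 was 1.82 and 1.79 times lower in early spermatocytes than in spermatogonia, and Cox7b 2.54 and 5.55 times lower. Ndufb11 came to 1.12 and 1.46 CPM in pachytene, then to 5.44 and 5.80 in middle round spermatids. Cox7b stayed between 0.640 and 2.96 CPM from pachytene to late round spermatids.

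From pachytene to middle round spermatids the members as a group declined. The median log2 fold was -0.62 and -0.78, against -0.38 and -0.32 over all 15232 genes tested, and under median-of-ratios scaling it kept its sign at -0.30 and -0.52. Of 91 members, 26 were more than 2-fold lower in both libraries (28.6%, background 29.2%) and 4 more than 2-fold higher (4.40%, background 26.5%).

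Complex II held the deepest declines. Sdhd went from 78.6 and 73.3 CPM in pachytene to 67.2 and 74.2 in late spermatocytes, 23.0 and 30.0 in early round and 7.40 and 6.57 in middle round spermatids, 10.6 and 11.2 times lower than in pachytene. Sdhc, for the other membrane anchor, went from 127 and 139 CPM to 18.7 and 18.5, 6.78 and 7.50 times lower. The catalytic subunit gene Sdha was 3.05 and 2.88 times lower, from 88.4 and 108 CPM to 29.0 and 37.5. Sdhb, the partner of Sdha in the enzyme's matrix arm, moved least, from 203 and 220 CPM to 149 and 153. The UMIs of Sdhb over those of Sdhc came to 1.60 and 1.58 in pachytene and 7.99 and 8.27 in middle round spermatids.

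The other members named as most lower were Ndufc2 (4.26 and 6.10 times), Uqcrc2 (3.97 and 4.70 times) and Ndufs8, for an iron-sulfur subunit of complex I (3.11 and 4.35 times). Cyct itself was 3.72 and 3.13 times lower and Cox8c 2.40 times lower in both libraries. Against this course, Atp5mpl was 7.59-fold higher (7.28 to 7.91) and 4.57-fold higher (4.42 to 4.74). It went from 78.4 and 132 CPM in pachytene to 241 and 224 in early round, 595 and 604 in middle round and 693 and 775 in late round spermatids. Atp5md was 3.74-fold and 3.52-fold higher, at 195 and 210 CPM in middle round spermatids. Both encode small membrane proteins of ATP synthase, and both had also fallen furthest among complex V genes before pachytene. Ndufb11 (4.85-fold and 3.97-fold) and Cycs (3.81-fold and 2.22-fold) completed the 4. Ndufaf4 came next, at 2.15 and 3.47 CPM in pachytene and 4.67 and 4.50 in middle round spermatids, and did not pass 2-fold in the high-fat library.

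**Figure D4:**
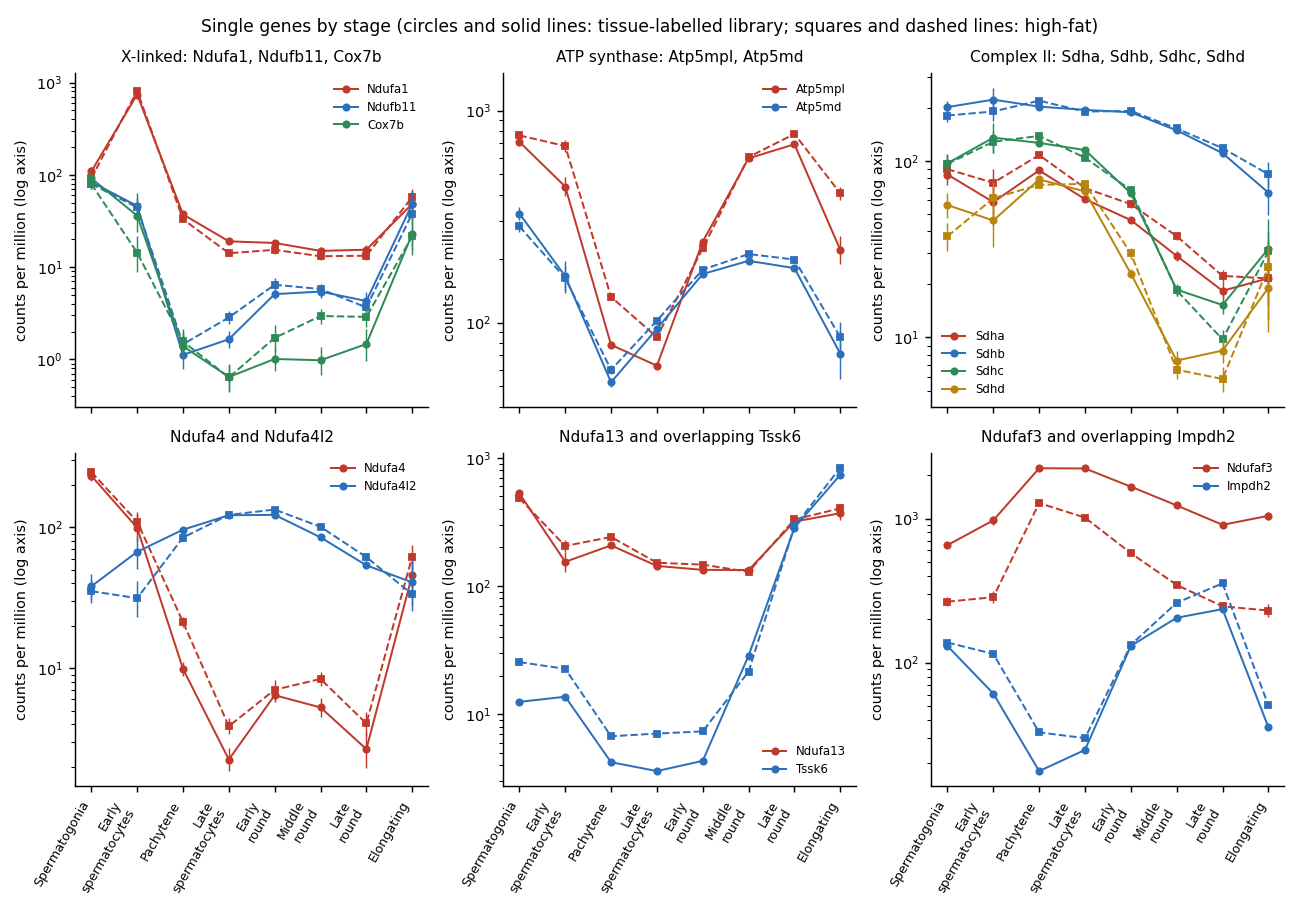
Level (CPM, log axis) by germ cell stage of the X-linked members, Atp5mpl and Atp5md, the 4 complex II genes, Ndufa4 and Ndufa4l2, and Ndufa13 and Ndufaf3 each with a gene that overlaps it on the opposite strand (Tssk6, Impdh2); circles and solid lines are the tissue-labelled library, squares and dashed lines the high-fat library. Ndufa1 peaks in early spermatocytes, Sdhc and Sdhd fall from early to middle round spermatids while Sdhb is still at 149 and 153, and the Ndufaf3 lines of the 2 libraries stay apart in each stage.

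Elongating spermatids against middle round spermatids gave 24 of 91 members more than 2-fold lower (26.4%, background 20.6%) and 8 more than 2-fold higher (8.79%, background 9.78%) in both libraries. The medians were -0.65 and -0.64, against -0.37 and -0.50 over all 13074 genes, and under median-of-ratios scaling -0.15 and 0.00, where the second changed sign. The 5 most lower were Ndufa5, Ndufaf2, Uqcrfs1 and Ndufb4, between 2.91 and 4.69 times lower, and Ndufaf1, which passed 2-fold in 1 library. Uqcrfs1 encodes the Rieske iron-sulfur protein of complex III. The 8 higher were Cox7b, Cycs, Ndufa4, Ndufb11, Cox8a, Ndufa1, Sdhd and Ndufa13. The first 5 were Cox7b at 22.9 and 21.6 CPM (23.4-fold and 7.30-fold), Cycs (7.32-fold and 11.8-fold), Ndufa4 (8.71-fold and 7.39-fold), Ndufb11 (8.89-fold and 6.57-fold) and Cox8a (4.07-fold and 3.95-fold).

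Of these 8 genes, 7 were higher in Sertoli-like cells than in elongating spermatids in both libraries, as were 89 of all 91 members tested. With each library clustered on its own, the elongating class held 864 and 629 cells, and 3 members were past 2-fold higher and 6 lower. The share of all genes past 2-fold was not taken with that clustering, so these counts have no background beside them. Cycs, Ndufa4 and Cox8a were then lower in elongating than in middle round spermatids of the tissue-labelled library, at log2 -0.073, -0.33 and -0.13. What part cells of other kinds have in the higher levels was not tested.

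Ndufa13, a complex I subunit gene, was the exception among the 8. It was already at 318 and 330 CPM in late round spermatids, from 133 and 129 in middle round, and at 369 and 403 in elongating spermatids, above its Sertoli level of 244 and 292. In the GENCODE M21 annotation it overlaps Tssk6, a spermatid kinase gene, on the opposite strand. Tssk6 went from 28.6 and 21.5 CPM in middle round to 285 and 291 in late round spermatids and 736 and 835 in elongating spermatids. Whether the counting used strand is not given in the sources used here, so reads of Ndufa13 and Tssk6 cannot be told apart with certainty. Of the 99 members, 43 overlap another annotated gene, among them Ndufb11, Ndufb5, Ndufc2, Ndufb9, Ndufaf2, Ndufa4l2, Sdha, Atp5f1 and Atp5md.

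Other mitochondrial gene lists were read at the same stage steps, as counts of genes past 2-fold in both libraries. No list was tested, and a list of this size near the share of all genes says nothing of the list. From spermatogonia to pachytene, where 12.6% of all genes were higher and 35.2% lower, genes for mitochondrial gene expression and biogenesis gave 0 higher and 6 lower of 15 tested (highest Esrra, log2 0.84 and 1.27; lowest Pprc1, -6.22 and -6.54). Respiratory complex assembly genes gave 0 higher and 9 lower of 33 (Sdhaf1 0.98 and 1.26; Coa7 -6.13 and -3.70). In the tricarboxylic acid cycle 3 were higher and 5 lower of 13 (Suclg1 1.06 and 1.21; Idh3g, an X-linked gene, -7.34 and -5.47). In pyruvate entry 2 were higher and 3 lower of 10 (testis isoform Pdha2 1.85 and 1.83; Pdk1 -8.31 and -7.49). General glycolysis gave 2 higher and 8 lower of 12 (Ldha 1.63 and 1.75; Hk2 -6.37 and -7.33), and germ cell glycolysis 2 higher and 4 lower of 9 (Ldhc 1.49 and 1.46; Gpi1 -2.90 and -3.70).

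From pachytene to middle round spermatids the share of all genes was 26.5% higher and 29.2% lower, and the median of all genes -0.38 and -0.32. Germ cell glycolysis, with isoforms that serve the sperm tail, gave 5 higher and 0 lower of 9, with medians of 1.27 and 1.53 (Aldoart2 4.51 and 3.89; Ldhc -0.37 and -0.40), beside member medians of -0.62 and -0.78. Assembly genes gave 4 higher and 14 lower of 32 (Nubpl 3.91 and 3.47; Acad9 -3.57 and -4.32). Gene expression and biogenesis gave 1 higher and 9 lower of 15 (Ppargc1b 3.77 and 2.98; Mterf1a -3.62 and -3.28). The tricarboxylic acid cycle gave 3 higher and 5 lower of 13 (Fh1 3.15 and 3.17; Dlst -2.67 and -2.85). Pyruvate entry gave 2 higher and 0 lower of 9 (Pdk3 4.41 and 3.78; Mpc1 -1.05 and -0.96), and general glycolysis 3 higher and 1 lower of 10 (Pgk1 2.07 and 2.62; Pgam1 -1.01 and -1.15).

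From middle round to elongating spermatids, where 9.78% of all genes were higher and 20.6% lower, pyruvate entry gave 0 higher and 6 lower of 9 (Mpc1 -0.87 and -0.48; Pdp1 -2.69 and -1.70) and assembly 1 higher and 4 lower of 28 (Cox14 1.99 and 2.23; Nubpl -3.13 and -2.29). The other 4 lists gave 2 to 4 higher and 1 to 3 lower. Their highest and lowest genes were Idh3g (3.18 and 2.38) and Fh1 (-2.34 and -1.70), Tfam (7.06 and 6.63) and Tfb1m (-1.32 and -2.16), Gpi1 (3.42 and 4.48) and Eno4 (-1.24 and -1.80), and Ldhb (6.17 and 5.82) and Ldha (-1.02 and -1.26). Sertoli markers were raised in the elongating cells here too, as given above.

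Between the libraries, the members as a group were level in each stage. The median log2 ratio of the high-fat library over the other was between -0.09 (spermatogonia) and 0.11 (pachytene), and over all genes between 0.01 and 0.12. Of 85 members with at least 50 counts in each of the 8 stages, 0 had a median ratio over stages past 2-fold higher (background 2.94% of 4144 genes) and 1 past 2-fold lower (background 1.13%). A single sign in all 8 stages was seen in 25.9% of members and 25.6% of all genes, with 5 members higher and 17 lower throughout. The split into higher and lower was not counted over all genes, so no lean of the members is read from it. These are differences between 2 libraries, and pachytene to late round stages rest on different clusters in each.

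The 1 member past 2-fold was Ndufaf3, a complex I assembly factor gene, which was lower in the high-fat library in all 8 stages. It was at 653 and 265 CPM in spermatogonia, 2233.5 and 1280.1 in pachytene, 1233 and 346 in middle round and 1044 and 230 in elongating spermatids. The high-fat library thus had 0.405 (0.373 to 0.440) of the other's level in spermatogonia, 0.573 (0.566 to 0.581) in pachytene and 0.220 (0.195 to 0.248) in elongating spermatids. In Sertoli-like cells it was at 1411 and 368 CPM. Ndufaf3 overlaps Impdh2 on the opposite strand in GENCODE M21, and Impdh2 was at 130 and 138 CPM in spermatogonia and 205 and 260 in middle round spermatids, and was higher in the high-fat library in all 8 stages.

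The next lowest by the median over stages were Ndufs4, a complex I subunit gene (log2 -0.57), Ndufc2 (-0.50), Cox6b2 (-0.47) and Ndufb9 (-0.43), each lower in the high-fat library in 8 of 8 stages. The highest were Cox6b1 (0.86, higher in 7 of 8), Ndufa4 (0.52), Ndufa12 (0.52), Atp5g1 (0.40) and Atp5f1 (0.39). Cox6b1 and Cox6b2 are partners, and their ratios had opposite signs in 7 of 8 stages. In middle round spermatids Cox6b1 was 2.84-fold higher (2.54 to 3.18) in the high-fat library, at 12.2 and 34.5 CPM, and Cox6b2 stood at 1277 and 921. In early spermatocytes both were lower in the high-fat library, at 0.561 (0.420 to 0.750) and 0.570 (0.512 to 0.634) of the other's level. In spermatogonia Cox6b1 differed little, at 291 and 323 CPM (1.11-fold, 1.01 to 1.22). Cyct was higher in the high-fat library in 7 of 8 stages (median 0.36), while Cycs was higher in 4 stages and lower in 4 (median -0.02).

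**Figure D5:**
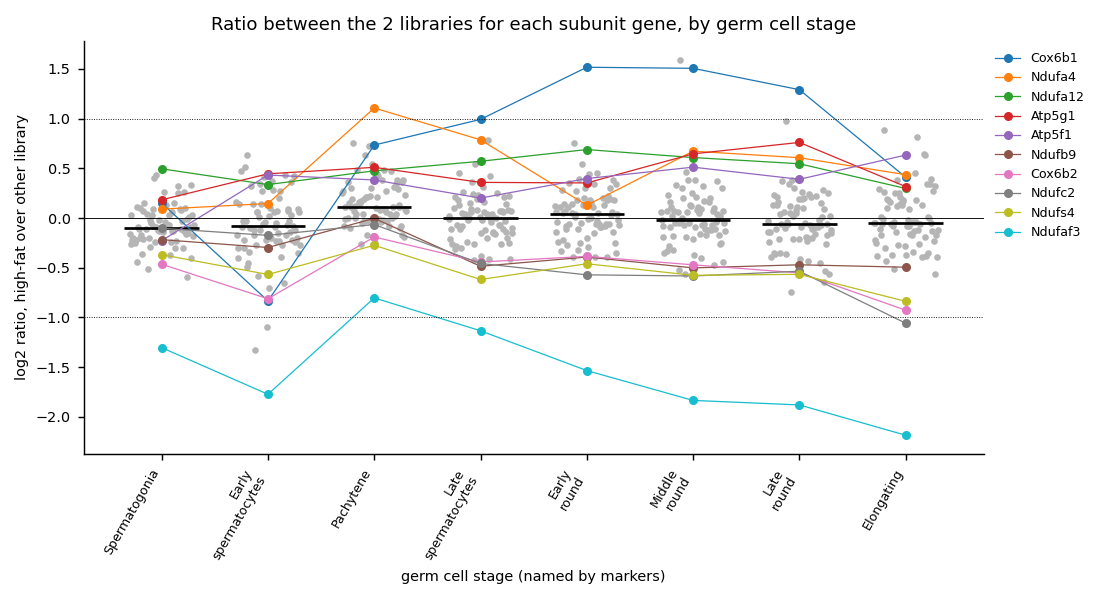
Log2 ratio of the high-fat to the tissue-labelled library for each of 85 members in each germ cell stage; grey points are members, black bars the median over members, coloured lines the 5 highest and 5 lowest members by the median over stages, and dotted lines 2-fold. Ndufaf3 lies below the other coloured lines in all 8 stages and the median bars stay near 0.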

How the data were processed

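Per the file headers, the deposited matrices hold whole-number UMI counts per gene and barcode, written by PISA 1.0, with no normalisation. The submitters' processing notes name Cell Ranger 2.1.1. No source used here gives the aligner, genome build, annotation or use of strand. The deposited counts were already filtered (smallest totals 1000 and 1025 UMIs). Per the labels' protocols, testis was digested, strained and captured in droplets with a DNBelab C kit, with no step that selects germ cells. From the counts, barcodes with at least 500 UMIs, 250 genes and at most 20% mitochondrial UMIs were kept, which removed 2 and 3. Doublets (517 and 462, 3.75% and 3.65%) were called with Scrublet in scanpy 1.11.5 at an expected 6% and left out. Cells of both libraries were clustered together without the 99 genes (2000 variable genes, 50 components, 20 neighbours, Leiden resolution 1, igraph 0.11.9; Python 3.11.15). The libraries share 1507 barcode names, which are running numbers.

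Clusters took the class with most markers among their top 10 genes, otherwise the highest mean marker fold. The minimum marker mean of 0.25 and the rules for shallow clusters were set after the clusters were seen, and left 1272 and 1618 cells (9.57% and 13.3%) unnamed. Names stand for "like". Counts were summed per stage and library as CPM. Intervals at 95% are exact Poisson for a level, conditional binomial for a ratio and Clopper-Pearson for a share, and UMIs limit but do not remove amplification error. A count of 0 was set to 3 counts in folds. Levels that free RNA subtraction took below 3 counts were set to 3 counts. A gene was called past 2-fold with at least 50 counts. Genes were named by a rule: the isoform pairs, the highest and lowest member of each complex, the 5 highest and 5 lowest by stage fold and by library ratio, and the highest and lowest of each list. Genes beyond it (Ndufa1, Ndufa13, Ndufa4l2, the complex II genes, the other genes past 2-fold) were chosen after their values were seen. Members, lists and markers were chosen with earlier results of these data known. The fold code was run on simulated data: intervals held the true fold for 96% of 200 changed genes among 8341 (pachytene over spermatogonia), 91.5% (middle round over pachytene) and 94.5% (elongating over middle round). The simulated counts were Poisson draws at the depths of the tissue-labelled library, the error that the intervals assume. They held no variation between cells, in clustering or in free RNA, so they check the code and not the spread of the real folds. GENCODE M21 gave chromosomes and overlapping genes (all 99 members matched), and RefSeq the upstream sequences (76 members matched). Cox8c had no entry. Many subunit genes have processed pseudogenes, and how the counting shared reads between copies is not given.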

Additional observations from a re-analysis of the deposited data

Results flagged for a closer look

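Cox8b, a muscle isoform of complex IV subunit 8, was present only in the high-fat matrix and so was not among the 99 genes. It had 4 UMIs there over all cells (95% exact Poisson interval 1.09 to 10.2), against 3 counts for the limit that a count of 0 allows, which lies inside that interval. No level or comparison can be read from it.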

How the results depend on the processing

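No paired analysis was possible because each group has 1 library. Each library clustered on its own, Leiden resolution 2, equal weight per cell, doublets kept, at least 2000 UMIs, free RNA subtracted and median-of-ratios scaling were run on the values above, and a count minimum of 0 on the library ratios. Pachytene without cluster 15 was chosen after seeing the data. The share of all genes past 2-fold was taken only in the settings of the main results. Member counts under the other settings therefore cannot be set against it. In free RNA subtraction, free UMIs per droplet in the deep and elongating stages were taken from spermatogonia, a choice also made after seeing the data, and the Sertoli class of the high-fat library could not be corrected. Over these settings and every class of at least 50 cells, each testis isoform of complex IV held at least 95.9% of its pair from pachytene to late round spermatids, and Cyct at least 87.1%. With doublets kept, the late round class of the tissue-labelled library held only 3 cells, where Cyct came to 77.8% and Cox7b2 to 88.9%.

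Elongating spermatids depended most on the clustering. Against middle round cells, members past 2-fold higher and lower were 3 and 6 with each library on its own, 3 and 8 at resolution 2, and 2 and 1 with doublets kept; 14 were lower with equal weights, 50 with free RNA subtracted and 3 under median of ratios. The Cyct share there came to 82.8% and 77.7% (own clustering), 76.6% (resolution 2, high-fat), 30.5% (equal weights, high-fat), 87.6% (doublets kept, tissue-labelled) and 25.9% and 9.08% (free RNA subtracted). The median there was -0.42 with equal weights (high-fat), -1.20 and -1.39 with free RNA subtracted, and -0.15 and 0.0017 under median of ratios. In the tissue-labelled library Cycs, Ndufa4 and Cox8a reversed to -0.073, -0.33 and -0.13 (own clustering) and to -0.11, -0.27 and -0.11 (doublets kept).

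From spermatogonia to pachytene, 6 members were past 2-fold higher and 10 lower with doublets kept, 19 higher with free RNA subtracted, and 5 higher under median of ratios, where the medians were -0.27 and 0.0021. The Cyct share in spermatogonia was 55.2% and 60.1% with doublets kept and 28.6% and 20.8% with free RNA subtracted. In pachytene it was 98.4% with equal weights (tissue-labelled) and 99.2% and 99.3% with free RNA subtracted. From pachytene to middle round spermatids the tissue-labelled median was -0.47 with doublets kept and -0.78 without cluster 15; under median of ratios the medians were -0.30 and -0.52, with 16 members lower. Between the libraries, 1 member was past 2-fold higher with own clustering, and 2 lower with no count minimum. Other causes of these shifts were not tested. Depth limits the spermatogonia and elongating values, which rest on few UMIs per cell.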

Other observations

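Cells left without a name held these transcripts too. Cluster 8, with 551 and 1153 cells of a median of 1462 and 1408 UMIs, had 25172 and 24974 CPM summed over the 99 genes, between the values of spermatogonia and late round spermatids. Cluster 5 (667 and 402 cells) had 18340 and 15456 CPM, between the values of late round and elongating spermatids in both libraries. Cluster 7, with 7 and 21 cells, had 18566 and 23244 CPM for the nuclear genes beside 34210 and 28618 CPM for the 12 protein genes of the mitochondrial genome, which over all cells of the 2 libraries stood at 69.0 and 89.3 CPM.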
